A study of Mus musculus with 4 samples.

Results

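The collagen genes were chosen by symbol, as every gene of the deposited tables named Col, a number, a and a number, which gave 44 of 32285 genes. No measured value entered that choice. Their RNA was counted as UMIs (molecule tags, each counted once) in mouse single-nucleus libraries of adipose tissue. There were 4 libraries, all from mice on a high-fat diet: brown adipose tissue (BAT) of the surgery group, BAT of the sham group, beige adipose tissue (BeAT) of the surgery group and BeAT of the sham group. The series title gives the surgery as bariatric. Each group was 1 library, the labels name no strain, age or number of animals, and no difference below was tested against the spread between animals. Each 95% interval covers counting error only.

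Collagens are the main structural proteins of the extracellular matrix, made of chains that wind around each other into a rope-like helix. Fibril-forming chains such as those of types I, III and V build the tensile fibres of connective tissue, type IV chains build the meshwork of basement membranes, and type VI chains build beaded filaments close to cells. In adipose tissue each adipocyte is wrapped in a basement membrane, fibroblast-like progenitors make most of the fibrillar matrix, and fibrosis of the fat depot is a known feature of obesity.

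After filters the libraries held 9131 (BAT surgery), 9970 (BAT sham), 5302 (BeAT surgery) and 9760 (BeAT sham) nuclei, with medians of 5168, 3978, 2647 and 3062.5 UMIs in that order. Between 36 and 73 barcodes were shared by any pair of libraries. Ucp1, the uncoupling protein of brown fat, was nearly absent from adipocyte-like nuclei. It had 0 UMIs in BAT surgery, 2 in BAT sham, 0 in BeAT surgery and 3 in BeAT sham. Zic1, checked beside Ucp1, had 0, 1, 0 and 0 UMIs in that order. Cidea, also checked in these nuclei, went the other way outside BAT surgery. It had 8 UMIs in BAT surgery, 742 in BAT sham, 149 in BeAT surgery and 1198 in BeAT sham. Hoxc10, a gene of the posterior body, had 0, 456, 55 and 463 UMIs in the same nuclei. BAT surgery stood apart further, because 5614 of its nuclei were epithelial-like. Gpx5, a gene of the epididymis, reached 1173 CPM (UMIs scaled to a library class total of 1000000) in its progenitor-like nuclei and 0 UMIs in the other libraries. BeAT surgery stood apart as well, with 1921 B cell-like and 1571 T or NK cell-like nuclei, against 46 and 197 in BeAT sham. Treatment, library and makeup can therefore not be told apart in any comparison with a surgery library, nor can the dissected region where BAT surgery is one of the pair, and the groups below carry their labels only as names.

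A level in a class is the UMIs of the gene over all UMIs of that class in that library (CPM). Classes came from 51 clusters made without any collagen gene and were named from markers that hold no collagen gene. Progenitor-like nuclei carried 398, 525, 486 and 636 CPM of Pdgfra, the receptor that marks adipose progenitors, in BAT surgery, BAT sham, BeAT surgery and BeAT sham. Lymphoid nuclei (T or NK cell-like and B cell-like), which should make almost no collagen, served as a gauge of free RNA. They held 119 collagen CPM in BAT surgery, against 585 in BAT sham, and 107 in BeAT surgery, against 433 in BeAT sham. The collagen counted in lymphoid nuclei was thus itself lower in both surgery libraries.

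Among the progenitor-, mural-, endothelial-, adipocyte- and macrophage-like classes, the level of collagen RNA was highest in the progenitor-like nuclei. Summed over the 44 genes it reached 7433 CPM in BAT surgery, against 11873 in BAT sham, and 6939 in BeAT surgery, against 14953 in BeAT sham. Mural-like nuclei, which join pericyte and smooth muscle markers, held 5389 in BAT surgery, against 4064 in BAT sham, and 3368 in BeAT surgery, against 3977 in BeAT sham. Endothelial-like nuclei held 1916 in BAT surgery, against 1944 in BAT sham, and 1541 in BeAT surgery, against 1957 in BeAT sham. In adipocyte-like nuclei the total was higher in both surgery libraries, with 1806 in BAT surgery, against 1217 in BAT sham, and 1292 in BeAT surgery, against 1035 in BeAT sham. Macrophage-like nuclei held 138, 513, 224 and 514 in BAT surgery, BAT sham, BeAT surgery and BeAT sham. The lymphoid nuclei held 119, 585, 107 and 433 in that order, so only in BAT sham were the macrophage-like nuclei lower.

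**Figure D1:**
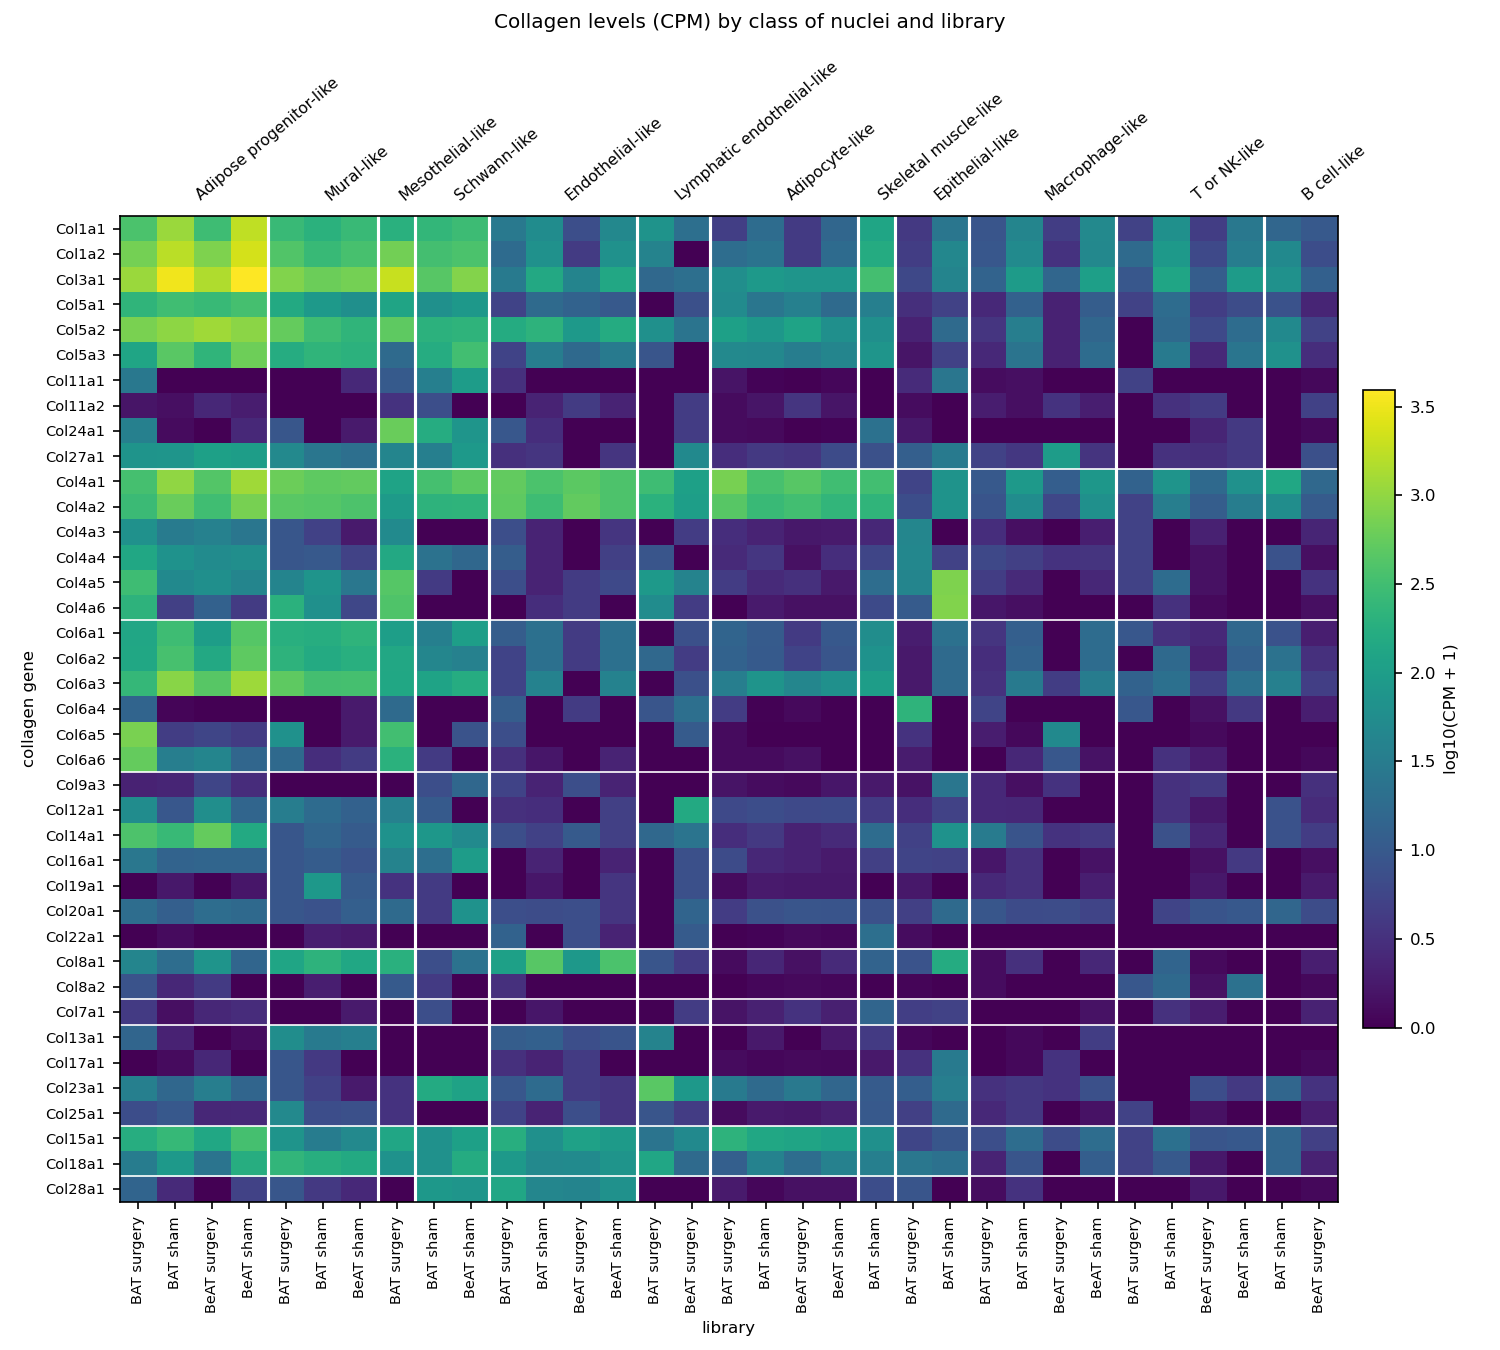
Colour gives log10(CPM + 1) of each collagen gene (rows, grouped by type with white lines) in each class and library (columns, for classes with at least 50 nuclei in that library). The 5 genes with the fewest UMIs (Col2a1, Col9a1, Col9a2, Col10a1 and Col26a1) are left out, and the brightest cells are Col3a1 in progenitor-like nuclei, up to 3934 CPM in BeAT sham.

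Progenitor-like nuclei held the highest level of 12 of 38 members with at least 20 UMIs in BAT surgery, of 18 of 39 in BAT sham, of 18 of 29 in BeAT surgery and of 21 of 31 in BeAT sham. They also stood above the lymphoid nuclei, by an interval that excluded 1, for 30 of 31 members with 20 UMIs in BAT surgery and 22 of 27 in BAT sham, and for 23 of 25 in BeAT surgery and 21 of 24 in BeAT sham. The members ranged widely in abundance: Col3a1 had 53118 UMIs over the 4 libraries and Col4a1 40378, whereas Col2a1, the cartilage fibril chain, had 4 and Col9a2, another cartilage collagen, had 7. Per kilobase of gene span, the order in progenitor-like nuclei of BAT sham was Col3a1 at 85.5 CPM, Col1a1 at 67.1, Col1a2 at 44.9, Col6a1 at 17.2, Col6a2 at 12.6, Col6a3 at 11.5, Col5a3 at 10.4 and Col4a1 at 8.66. In BAT surgery the same scale gave 29.6 for Col3a1, 22.2 for Col1a1, 18.9 for Col1a2, 7.61 for Col6a1 and 7.18 for Col6a5, whose value in BAT sham was 0.0328.

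In progenitor-like nuclei the type I and III chains, the classical type VI chains, Col4a1 and Col4a2 were lower in both surgery libraries, while Col6a6, Col12a1, Col8a1 and Col23a1 were higher. A gene counted as higher or lower needed 50 UMIs over the pair of libraries, a 2-fold ratio and an interval without 1. Under the BAT label 10 members were higher and 10 lower of 28 with enough UMIs, against 6.12% higher and 12.1% lower of all genes measured so. The median log2 ratio, surgery over sham, was 0.71 for collagen genes and -0.02 for all genes with at least 20 UMIs. Under the BeAT label 5 members were higher and 11 lower of 24, against 5.59% and 17.9% of all genes, with a median log2 ratio of -0.23 for collagen genes and -0.08 for all. Members lower under both labels numbered 10 (Col1a1, Col1a2, Col3a1, Col5a3, Col4a1, Col4a2, Col6a1, Col6a2, Col6a3 and Col18a1), and members higher under both numbered 4 (Col6a6, Col12a1, Col8a1 and Col23a1), of 24 with 50 UMIs in each comparison. The share of all genes counted under both labels is not given here, so this overlap cannot be called particular to collagen genes.

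Different clusters held most of this class in different libraries. A cluster led by C7, which encodes a complement protein, held 419 of 440 progenitor-like nuclei in BAT surgery, against 214 of 1782 in BAT sham, and 50 of 165 in BeAT surgery, against 111 of 997 in BeAT sham. A cluster with Pi16 and Fbn1 among its leading genes held 17 nuclei in BAT surgery, 786 in BAT sham, 71 in BeAT surgery and 242 in BeAT sham. A cluster with Smoc2 among its leading genes held 4, 782, 44 and 644. The ratios of the whole class are therefore given below together with those inside the C7 cluster, which were added after seeing the data. At clustering resolution 1.0 in place of 2.0 the cluster led by C7 held 495 nuclei in BAT surgery. It was not named progenitor-like, because mesothelial markers rivalled its progenitor markers. In that setting 64 progenitor-like nuclei remained in BAT surgery, and under the BAT label 4 members were higher and 12 lower. The share of all genes in that setting is not given here. There Col4a3 (0.350), Col4a4 (0.775), Col8a1 (at most 0.776) and Col23a1 (0.702) were on the other side of 1, Col3a1 (0.564) no longer reached 2-fold, and Col4a5 (4.25), Col4a6 (29.8), Col6a5 (61.2) and Col6a6 (8.83) stayed above 1. Of 27 members inside the C7 cluster at resolution 2.0, 8 were higher and 3 lower under the BAT label, against 6.58% and 7.27% of all genes. Under the BeAT label 2 were higher and 4 lower of 14, against 10% and 13.3%. The Pi16 cluster could be compared under the BeAT label, with 0 higher and 7 lower of 13, against 8.6% and 16.3%.

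**Figure D2:**
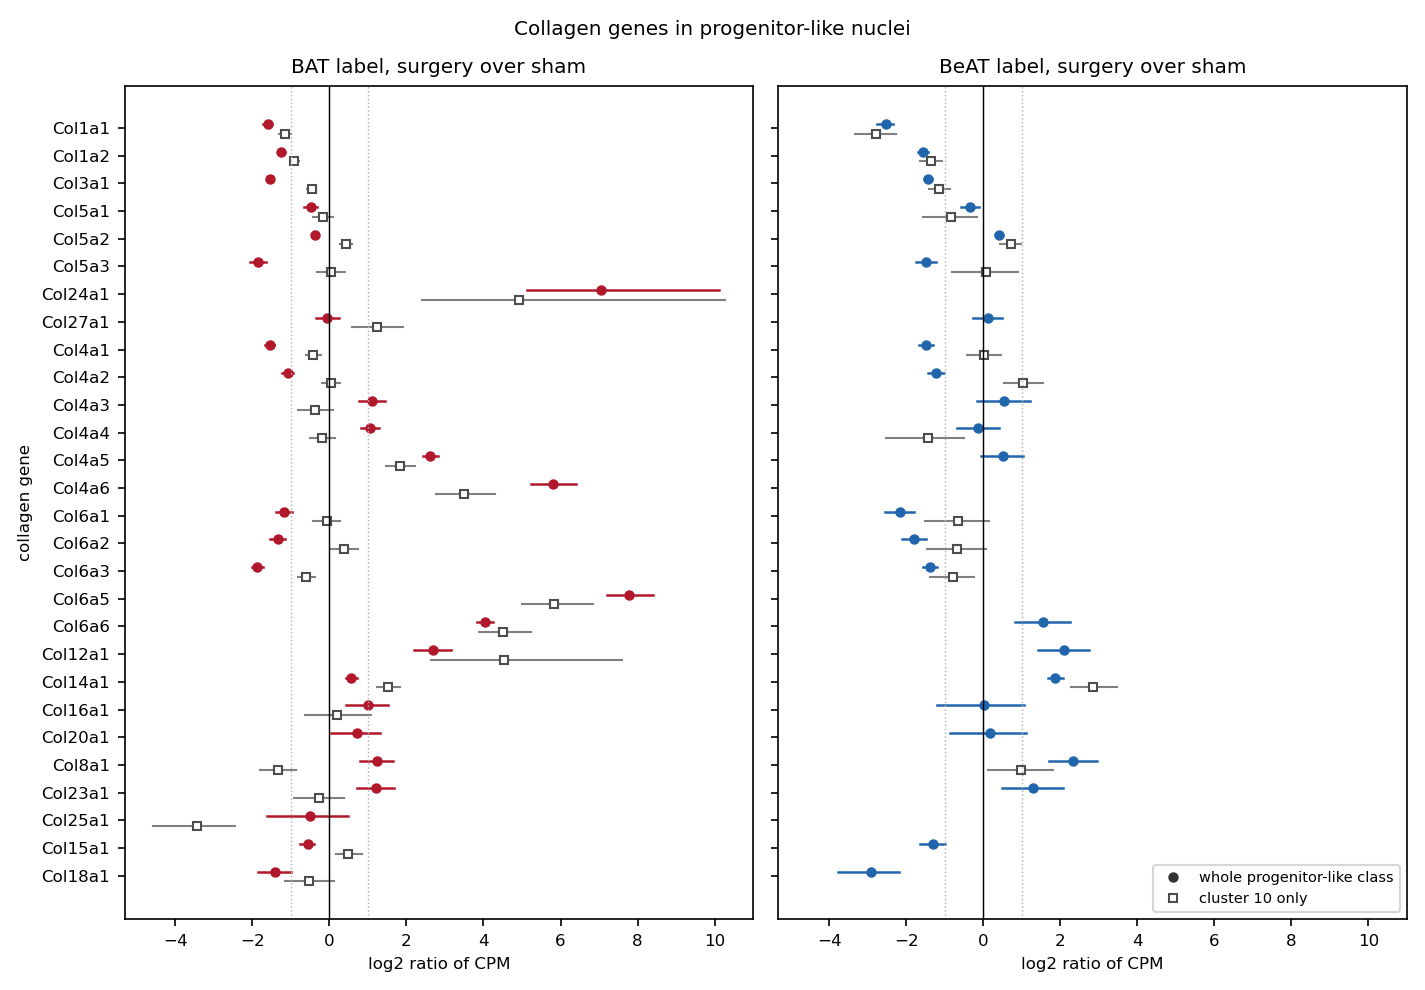
Each row is a collagen gene and the horizontal axis is the log2 ratio of CPM, surgery over sham, in progenitor-like nuclei of the BAT label (left) and the BeAT label (right). Filled circles show the whole class and open squares the C7 cluster alone (cluster 10 in the legend), bars are 95% counting intervals, dotted lines mark 2-fold, and Col6a5 lies furthest right at a 219-fold ratio in the left panel.

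Among fibril-forming collagens the type I and type III chains were lower in surgery. Col1a1, the major chain of type I collagen, stood at 373 CPM in BAT surgery, against 1129 in BAT sham, a ratio of 0.330 (95% interval 0.303 to 0.358). It stood at 304 in BeAT surgery, against 1760 in BeAT sham, a ratio of 0.172 (0.149 to 0.199). It was lower inside the C7 cluster as well, at 373 in BAT surgery, against 826 in BAT sham (0.452), and at 189 in BeAT surgery, against 1287 in BeAT sham (0.147). The Pi16 cluster held 401 in BeAT surgery, against 1164 in BeAT sham (0.345). Col1a1 was thus lower by at least 2-fold in the whole class and in each of these clusters that could be compared.

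Col1a2, the partner chain of Col1a1, had 695 CPM in BAT surgery, against 1649 in BAT sham, a ratio of 0.422 (0.396 to 0.448). In BeAT surgery it had 783, against 2320 in BeAT sham, a ratio of 0.338 (0.308 to 0.369). Inside the C7 cluster the ratios were 0.532 and 0.390 under the BAT and BeAT labels, so the BAT value no longer reached 2-fold. Col3a1, the single chain of type III collagen, had 1131 in BAT surgery, against 3262 in BAT sham (0.347, 0.331 to 0.364), and 1460 in BeAT surgery, against 3934 in BeAT sham (0.371, 0.347 to 0.396). Its ratios inside the C7 cluster were 0.727 and 0.455. In sham libraries the Smoc2 cluster, almost absent from BAT surgery, was the richest in Col3a1, where the BAT sham nuclei held 5365 and the BeAT sham nuclei 5182.

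The promoters of Col1a2 and Col3a1 are shown because these chains were lower together in both surgery libraries. The RefSeq table (GRCm38.p6) gives 250 bases before and 50 after each start, and 35 of the 44 collagen genes had an entry. The Col1a2 window is chr6:4505368-4505667 on the plus strand, with 2 CCAAT and 2 GGGCGG matches in capitals, and the Col3a1 window is chr1:45311288-45311587 on the plus strand, with 1 TATAAA in capitals.
Col1a2: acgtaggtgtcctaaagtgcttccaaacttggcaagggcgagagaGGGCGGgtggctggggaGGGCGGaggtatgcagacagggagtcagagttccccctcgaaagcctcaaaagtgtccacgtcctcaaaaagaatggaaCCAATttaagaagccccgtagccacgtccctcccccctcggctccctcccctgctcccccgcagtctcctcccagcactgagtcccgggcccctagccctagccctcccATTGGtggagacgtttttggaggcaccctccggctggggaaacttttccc
Col3a1: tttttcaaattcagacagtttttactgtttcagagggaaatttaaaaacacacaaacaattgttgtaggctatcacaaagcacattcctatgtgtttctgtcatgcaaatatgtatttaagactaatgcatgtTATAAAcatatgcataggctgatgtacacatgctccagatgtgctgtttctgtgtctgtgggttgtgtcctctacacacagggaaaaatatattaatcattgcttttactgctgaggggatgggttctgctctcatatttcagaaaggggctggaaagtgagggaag
Letters were searched on both strands, so CCAAT may read ATTGG and GGGCGG may read CCGCCC, and no matches overlapped. CCAAT occurred in 37.4% of all 32851 promoter windows and in 34.2% of the 38 collagen windows, TATAAA in 13.6% and 13.2%, and GGGCGG in 35.7% and 60.5%.

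Type V chains, which start and limit the width of type I fibrils, did not move as a unit. Col5a1 had 225 CPM in BAT surgery, against 314 in BAT sham, and 265 in BeAT surgery, against 337 in BeAT sham. Col5a2 had 747 in BAT surgery, against 965 in BAT sham, and 1226 in BeAT surgery, against 921 in BeAT sham. Neither reached 2-fold under either label. Col5a3 did, with 130 in BAT surgery, against 467 in BAT sham (0.279), and 225 in BeAT surgery, against 629 in BeAT sham (0.358). Its C7 cluster ratios were 1.03 and 1.05, so the Col5a3 difference was one of the whole class and was not seen there.

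Scarcer fibrillar chains ran the other way in BAT surgery. Col24a1, a fibril-forming collagen of developing bone, had 59 UMIs in BAT surgery, against 2 in BAT sham, a ratio of 132 (34.8 to 1112). All 59 lay in the C7 cluster, where BAT sham had 1 and the ratio was 30.5 (5.26 to 1224), and at resolution 1.0 the class held 0 UMIs in BAT surgery, against 2 in BAT sham. Col24a1 had 0 UMIs in BeAT surgery, against 5 in BeAT sham. Set against 3 UMIs in place of that 0, BAT surgery was at least 7.85-fold higher than BeAT surgery. Col11a1, a minor fibril chain of cartilage, had 43 UMIs in BAT surgery, against 0 in BAT sham, at least 63.9-fold higher with 3 UMIs in place of the 0, but under the 50 UMIs set for counting it. Col27a1, also fibril-forming, had 71.0 CPM in BAT surgery, against 73.7 in BAT sham, and 109 in BeAT surgery, against 100 in BeAT sham.

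Type IV collagen split into its chain pairs. Col4a1 and Col4a2, the chains found in nearly all basement membranes, were lower in progenitor-like nuclei of both surgery libraries, whereas the other 4 chains were higher in BAT surgery. Col4a1 had 338 CPM in BAT surgery, against 991 in BAT sham (0.342), and 429 in BeAT surgery, against 1203 in BeAT sham (0.357). Col4a2 had 283 in BAT surgery, against 599 in BAT sham (0.472), and 307 in BeAT surgery, against 717 in BeAT sham (0.428). Inside the C7 cluster these ratios were 0.750 and 1.02 under the BAT label and 1.02 and 2.06 under the BeAT label, in that order of chains, so neither chain was lower by 2-fold there. The Smoc2 cluster was the rich one, where Col4a1 stood at 1854 CPM in the BAT sham nuclei and 1743 in the BeAT sham nuclei.

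The type IV genes lie head to head in pairs, and the windows between them are shown for that reason. Col4a1 and Col4a2 start 21 bases apart on opposite strands of chromosome 8, with overlapping first bases, and reads there cannot be assigned without strand. Col4a3 and Col4a4 start 72 bases apart on chromosome 1, and Col4a5 and Col4a6 start 1309 bases apart on chromosome X. The Col4a2 window is chr8:11312555-11312854 on the plus strand and also spans the start of Col4a1, with 1 CCAAT and 3 GGGCGG matches in capitals. The Col4a4 window is chr1:82586800-82587099 on the minus strand and holds none of the motifs searched.
Col4a2: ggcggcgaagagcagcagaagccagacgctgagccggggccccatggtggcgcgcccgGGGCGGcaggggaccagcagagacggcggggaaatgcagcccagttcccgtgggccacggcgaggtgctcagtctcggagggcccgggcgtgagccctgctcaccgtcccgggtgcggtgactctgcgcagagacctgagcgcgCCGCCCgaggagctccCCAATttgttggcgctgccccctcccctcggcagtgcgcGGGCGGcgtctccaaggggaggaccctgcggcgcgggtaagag
Col4a4: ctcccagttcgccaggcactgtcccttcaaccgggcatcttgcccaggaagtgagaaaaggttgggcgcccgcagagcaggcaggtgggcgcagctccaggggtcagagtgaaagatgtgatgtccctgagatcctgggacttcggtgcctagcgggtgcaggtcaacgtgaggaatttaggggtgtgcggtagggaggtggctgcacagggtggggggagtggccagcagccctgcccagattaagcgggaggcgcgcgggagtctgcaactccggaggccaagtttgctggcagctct
The members of each pair had ratios on the same side of 1 in progenitor-like nuclei of the BAT label, which is a description of 3 pairs.

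Col4a5, the chain mutated in X-linked Alport syndrome, had 305 CPM in BAT surgery, against 49.4 in BAT sham, a ratio of 6.17 (5.38 to 7.08). In BeAT surgery it had 59.8, against 42.2 in BeAT sham. Col4a6, its neighbour, had 213 in BAT surgery, against 3.84 in BAT sham, a ratio of 55.4 (37.7 to 84.6). It had 12.3 in BeAT surgery, against 3.18 in BeAT sham, on 8 and 10 UMIs. Both were higher inside the C7 cluster too, by 3.57-fold and 11.2-fold under the BAT label. Col4a3 had 64.9 in BAT surgery, against 30.05 in BAT sham (2.16), and Col4a4 had 138, against 66.3 (2.09). Inside the C7 cluster, however, their ratios under the BAT label were 0.779 and 0.884. In BeAT surgery Col4a3 had 36.8, against 25.1 in BeAT sham, and Col4a4 had 53.7, against 58.4. The C7 cluster held Col4a3 at 55.5 in BeAT surgery, against 76.6 in BeAT sham, on 10 and 26 UMIs. It held Col4a4 at 61.0, against 165, on 11 and 56 UMIs. These are chains of the kidney filter and other specialised basement membranes. In the surgery libraries, BAT over BeAT, the ratios were 2.58 for Col4a4, 5.10 for Col4a5 and 17.4 for Col4a6.

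**Figure D3:**
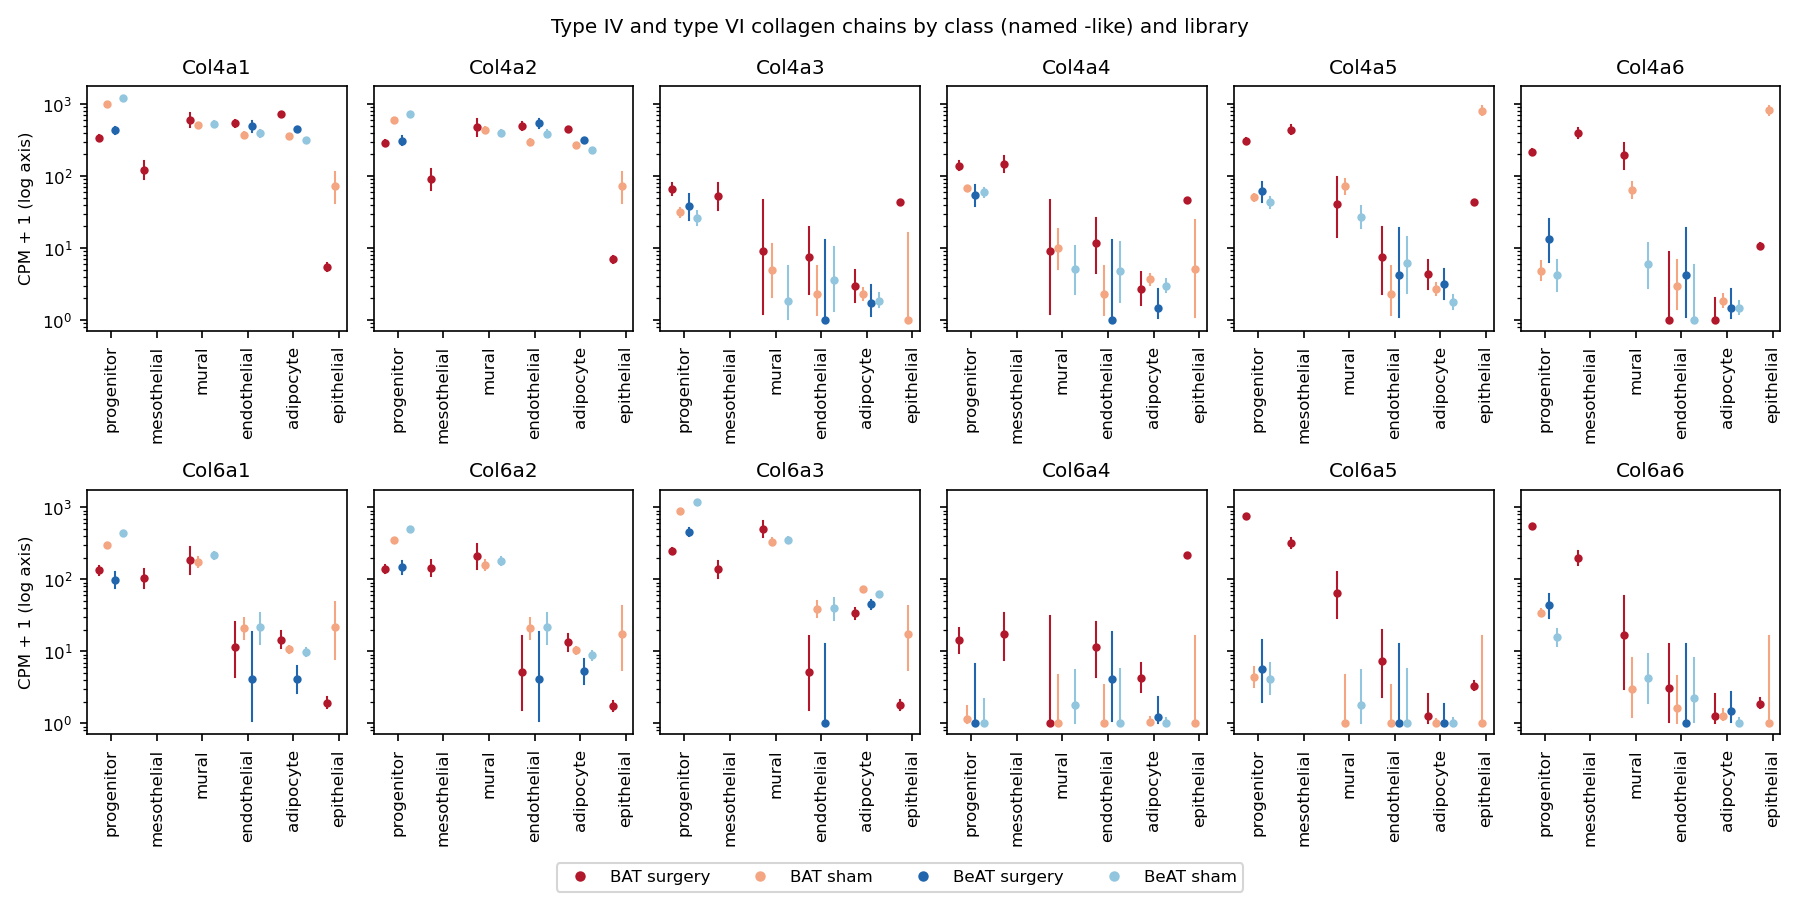
Each panel is a type IV (top) or type VI (bottom) chain, with class on the horizontal axis and CPM + 1 on a log axis, points for libraries with at least 50 nuclei in the class and bars for 95% counting intervals. Col4a1 and Col4a2 are spread over progenitor-, mural-, endothelial- and adipocyte-like nuclei, while Col6a5 is high in BAT surgery progenitor-like (751) and mesothelial-like (322) nuclei and at 4.60 or below in progenitor-like nuclei of the other libraries.

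Type VI collagen split in the same manner between its common and its alternative chains. Col6a1, Col6a2 and Col6a3, the classical chains, were lower in both surgery libraries. Col6a1 had 132 CPM in BAT surgery, against 298 in BAT sham (0.443), and 98.1 in BeAT surgery, against 441 in BeAT sham (0.222). Col6a2 had 139 in BAT surgery, against 352 in BAT sham (0.395), and 146 in BeAT surgery, against 505 in BeAT sham (0.288). Col6a3, whose C-terminal fragment is endotrophin, a signal released by obese fat, had 247 in BAT surgery, against 898 in BAT sham (0.275), and 455 in BeAT surgery, against 1185 in BeAT sham (0.384). No classical chain reached 2-fold inside the C7 cluster, and Col6a2 was on the other side of 1 under the BAT label (1.30).

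Col6a5 and Col6a6, alternative chains that can take the place of Col6a3, were abundant in BAT surgery. Col6a5 had 1227 UMIs in BAT surgery, against 25 in BAT sham, or 751 against 3.43 CPM, a ratio of 219 (148 to 340). In BeAT surgery it had 3 UMIs, against 10 in BeAT sham. The BAT ratio was 57.3 (31.9 to 115) inside the C7 cluster, from 773 CPM in BAT surgery, against 13.5 in BAT sham. Col6a6 had 556 in BAT surgery, against 33.6 in BAT sham, a ratio of 16.5 (14.3 to 19.1), and 42.9 in BeAT surgery, against 14.6 in BeAT sham, a ratio of 2.94 (1.77 to 4.80). Col6a6 was 22.8-fold higher inside the C7 cluster under the BAT label, and under the BeAT label its ratio was 0.471. The surgery libraries differed from each other by 163-fold for Col6a5 and 12.9-fold for Col6a6, BAT over BeAT.

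Of the 9 fibril-associated collagens, which sit on the surface of type I fibrils, 4 had enough UMIs in progenitor-like nuclei. Of these, 1 was higher and 0 lower under the BAT label, against 6.12% and 12.1% of all genes. For the BeAT label the counts were 2 higher and 0 lower, against 5.59% and 17.9%. Col12a1 had 54.5 CPM in BAT surgery, against 8.51 in BAT sham (6.40, 4.58 to 9.002), and 58.3 in BeAT surgery, against 13.7 in BeAT sham (4.27, 2.68 to 6.76). At resolution 1.0 the BAT ratio was 1.23. Inside the C7 cluster it was 23.0, and in the Pi16 cluster BeAT surgery had 118, against 11.7 in BeAT sham, on fewer than 50 UMIs. Col14a1 had 547 in BeAT surgery, against 150 in BeAT sham (3.66, 3.18 to 4.21), and 389 in BAT surgery, against 261 in BAT sham. Inside the C7 cluster Col14a1 was higher under both labels, by 2.88-fold (BAT) and 7.23-fold (BeAT). Col16a1 had 25.7 in BAT surgery, against 12.9 in BAT sham, and did not reach 2-fold.

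Col8a1, a short-chain collagen of vessel walls, had 42.2 CPM in BAT surgery, against 17.97 in BAT sham (2.35), and 70.5 in BeAT surgery, against 13.97 in BeAT sham (5.05). Its BAT ratio inside the C7 cluster was 0.396, the opposite direction. Col23a1, a transmembrane collagen, had 34.3 in BAT surgery, against 14.8 in BAT sham (2.31), and 33.7 in BeAT surgery, against 13.7 in BeAT sham (2.47). Those ratios were 1.90 and 1.79 once the trend with gene span was taken off, and 0.827 inside the C7 cluster under the BAT label. Col25a1, a transmembrane collagen of nerve-muscle contacts, had 10 of 1634246 UMIs in BAT surgery, against 63 of 7287933 in BAT sham. It had 1 of 652265 in BeAT surgery, against 5 of 3148536 in BeAT sham. Neither label counted it as higher or lower in the whole class. In the C7 cluster BAT sham held 56 of its 63, at 68.6 CPM, and BAT surgery at most its 10.

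The multiplexins, which link basement membranes to the matrix around vessels, were lower or short of 2-fold. Col18a1, the source of endostatin, had 31.8 CPM in BAT surgery, against 84.4 in BAT sham (0.377), and 23.0 in BeAT surgery, against 175 in BeAT sham (0.132, 0.0732 to 0.219). Col15a1 had 138 in BeAT surgery, against 343 in BeAT sham (0.402), and 175 in BAT surgery, against 259 in BAT sham. The BeAT ratio of Col15a1 was 1.28 inside the C7 cluster, whereas in the Pi16 cluster it was 0.251.

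Between the sham libraries few members of the progenitor-like nuclei reached 2-fold. The median log2 ratio, BAT over BeAT, was -0.26 for collagen genes and 0.01 for all genes. Only Col6a6 (2.30, BAT over BeAT) and Col25a1 (5.44) were higher and Col18a1 (0.483) lower of 25 members, against 2.06% higher and 1.58% lower of all genes. Most Col25a1 UMIs of the BAT sham progenitor-like nuclei, 56, lay in the C7 cluster, at 68.6 CPM. In the clusters that held the rest the Col25a1 ratio was below 1, at 0.777 (Pi16 cluster) and 0.617 (Smoc2 cluster). Within clusters the sham libraries gave 2 higher and 0 lower of 20 in the C7 cluster (2.09% and 2.04% of all genes), 1 and 0 of 20 in the Pi16 cluster (1.96% and 1.48%) and 0 and 1 of 22 in the Smoc2 cluster (1.1% and 3.61%). Between the surgery libraries 6 members were higher in BAT and 0 lower of 26, against 7.65% and 4.52% of all genes. These 6 were Col24a1, Col4a4, Col4a5, Col4a6, Col6a5 and Col6a6, all described above. Inside the C7 cluster that pair gave 7 higher and 2 lower of 25, against 9.46% and 4.5%. No p-value exists for these counts, which rest on 1 library a group.

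Adipocyte-like nuclei carried mainly basement membrane collagen. Col4a1 had 720 CPM in BAT surgery, against 358 in BAT sham, a ratio of 2.01 (1.93 to 2.10), and 450 in BeAT surgery, against 311 in BeAT sham, a ratio of 1.45. Col4a2 had 450 in BAT surgery, against 268 in BAT sham, and 317 in BeAT surgery, against 230 in BeAT sham. Col15a1 had 212 in BAT surgery, against 136 in BAT sham, and 125 in BeAT surgery, against 107 in BeAT sham. All 3 genes stood above the lymphoid nuclei, where Col4a1 was at 12.5 in BAT surgery, against 87.0 in BAT sham, and at 15.7 in BeAT surgery, against 71.8 in BeAT sham. The level of Col4a1 was thus higher in adipocyte-like nuclei of both surgery libraries and lower in their lymphoid nuclei. The part of free RNA in these levels was not tested.

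Among adipocyte-like nuclei 3 members were higher and 4 lower of 21 under the BAT label, against 5.34% and 11.9% of all genes, with a median log2 ratio of -0.21 for collagen genes and -0.08 for all. Under the BeAT label 2 were higher and 5 lower of 17, against 4.33% and 15.1%, with medians of -0.16 and -0.09. Col5a1 was higher under both labels, with 53.5 CPM in BAT surgery, against 24.7 in BAT sham (2.17), and 35.3 in BeAT surgery, against 16.6 in BeAT sham (2.13). Col5a2 had 123 in BeAT surgery, against 60.4 in BeAT sham (2.03), and 111 in BAT surgery, against 77.7 in BAT sham. With the span trend taken off these ratios were under 2-fold, at 1.93 and 1.67 for Col5a1, at 1.62 for Col5a2 under the BeAT label and at 1.77 for Col4a1 under the BAT label. Of the 569 adipocyte-like nuclei in BAT surgery, 524 lay in a cluster with 1 nucleus of BAT sham, so no comparison inside a cluster could be made for that label.

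The type I chains in adipocyte-like nuclei were at or below the free RNA level. Col1a1 had 3.61 CPM in BAT surgery, against 17.4 in BAT sham (0.207), and 3.08 in BeAT surgery, against 14.1 in BeAT sham (0.218). The lymphoid nuclei held 6.26 in BAT surgery, against 51.2 in BAT sham, and 6.50 in BeAT surgery, against 31.1 in BeAT sham. Col1a2 was lower under the BeAT label (0.179), with 3.08 in BeAT surgery, against 17.2 in BeAT sham, and lymphoid nuclei at 5.65 and 31.1. Both chains stood at or below the lymphoid level in each of the 4 libraries, and the part of free RNA in these ratios was not tested. Col3a1 had 58.5 in BAT surgery, against 87.0 in BAT sham, and 74.3 in BeAT surgery, against 73.2 in BeAT sham, and only in the surgery libraries did it exceed the lymphoid level, of 9.38 and 11.1.

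Of the remaining members in adipocyte-like nuclei, Col18a1 was lower under both labels, with 11.4 CPM in BAT surgery, against 37.7 in BAT sham (0.301), and 17.99 in BeAT surgery, against 36.8 in BeAT sham (0.489). Col6a3 had 33.01 in BAT surgery, against 71.6 in BAT sham (0.461), and 44.3 in BeAT surgery, against 61.8 in BeAT sham. Col6a1 had 3.08 in BeAT surgery, against 8.91 in BeAT sham (0.346), and 13.6 in BAT surgery, against 9.62 in BAT sham. Col6a2 had 4.26 in BeAT surgery, against 7.86 in BeAT sham, and 12.5 in BAT surgery, against 9.34 in BAT sham. Col16a1 was higher in BAT surgery on 20 and 38 UMIs (3.66), Col20a1 was lower there (0.482), and Col27a1 was lower in BeAT surgery (0.463). Col5a3 stayed between 32.2 and 47.4 in the 4 libraries. BAT over BeAT, 1 member (Col4a5, 2.25) was higher and 0 lower of 22 in the sham libraries, against 1.83% and 1.01%. In the surgery libraries 3 were higher and 0 lower of 13, against 4.59% and 3.52%: Col1a2 (5.95), Col6a1 (4.42) and Col6a2 (2.93). In BAT surgery none of the 3 stood apart from the lymphoid nuclei, which held 18.8 CPM of Col1a2, against 18.3 in adipocyte-like nuclei.

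**Figure D4:**
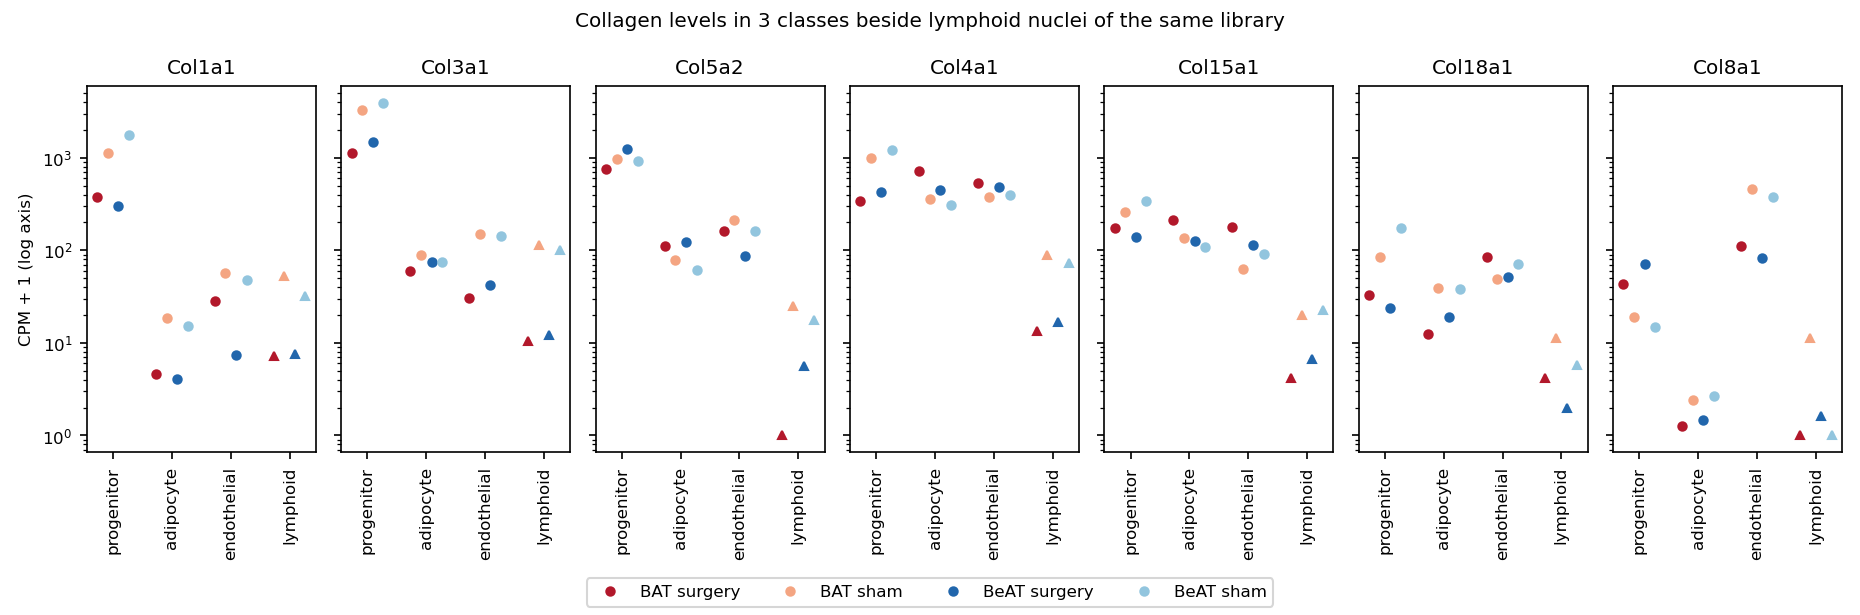
Each panel is a collagen gene, with class on the horizontal axis and CPM + 1 on a log axis; circles are progenitor-, adipocyte- and endothelial-like nuclei and triangles are lymphoid nuclei of the same library. Col4a1 and Col15a1 lie above the triangles in every class and library, whereas Col1a1 in adipocyte-like nuclei (3.08 to 17.4) lies below the triangle of its own library.

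Endothelial-like nuclei also carried basement membrane collagen, and Col8a1 was lower there in both surgery libraries. Col8a1 had 110 CPM in BAT surgery, against 454 in BAT sham, a ratio of 0.243 (0.179 to 0.322), and 82.6 in BeAT surgery, against 374 in BeAT sham, a ratio of 0.221 (0.142 to 0.330). Lymphoid nuclei held 0 in BAT surgery, against 10.2 in BAT sham, and 0.640 in BeAT surgery, against 0 in BeAT sham. Both endothelial-like clusters had the difference. In the cluster with Flt1 among its leading genes the level was 56.2 in BAT surgery, against 362 in BAT sham, and 88.2 in BeAT surgery, against 317 in BeAT sham. In the cluster with Eln and Vwf among its leading genes, as in larger vessels, it was 192 in BAT surgery, against 636 in BAT sham, and 72.3 in BeAT surgery, where 32 nuclei were counted, against 448 in BeAT sham.

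Over all members in endothelial-like nuclei 2 were higher and 6 lower of 12 under the BAT label, against 4.16% and 8.91% of all genes, with median log2 ratios of -0.99 for collagen genes and -0.03 for all. Under the BeAT label 0 were higher and 3 lower of 9, against 5.56% and 13%, with medians of -0.91 and 0.00. Col15a1 was higher under the BAT label, with 176 CPM in BAT surgery, against 62.3 in BAT sham (2.82, 2.08 to 3.83), and had 114 in BeAT surgery, against 89.6 in BeAT sham. Col28a1, a collagen best known from peripheral nerve, had 133 in BAT surgery, against 44.1 in BAT sham (3.03, 2.11 to 4.33), and 41.3 in BeAT surgery, against 64.0 in BeAT sham. It was mainly in the Flt1 cluster, with 221 in BAT surgery, against 64.5 in BAT sham.

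Col4a1 and Col4a2 did not reach 2-fold in endothelial-like nuclei. Col4a1 had 536 CPM in BAT surgery, against 373 in BAT sham, and 486 in BeAT surgery, against 392 in BeAT sham. Col4a2 had 500 in BAT surgery, against 296 in BAT sham, and 534 in BeAT surgery, against 385 in BeAT sham. Both were thus above their sham level in each surgery library, as in adipocyte-like nuclei and unlike progenitor-like nuclei as a whole. Col18a1 had 84.7 in BAT surgery, against 48.0 in BAT sham, and 50.8 in BeAT surgery, against 70.4 in BeAT sham. Col5a2 had 161 in BAT surgery, against 211 in BAT sham, and 85.8 in BeAT surgery, against 163 in BeAT sham, nearly all of it in the Eln cluster.

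The fibrillar members that were lower in endothelial-like nuclei were also lower in lymphoid nuclei. Col3a1 had 29.6 CPM in BAT surgery, against 148 in BAT sham (0.201), and 41.3 in BeAT surgery, against 142 in BeAT sham (0.291), while lymphoid nuclei held 9.38 in BAT surgery, against 114 in BAT sham, and 11.1 in BeAT surgery, against 101 in BeAT sham. Col1a2 had 16.9 in BAT surgery, against 64.8 in BAT sham (0.261), and 3.18 in BeAT surgery, against 65.3 in BeAT sham (0.0487). Col1a1 (0.494), Col5a3 (0.131) and Col6a3 (0.111) were lower under the BAT label, the last with 2 UMIs in BAT surgery. Col5a1, Col6a1 and Col6a2 had at most 20.5 in any library. Col1a1, Col3a1, Col5a3 and Col6a3 did not stand apart from the lymphoid nuclei in either sham library, and the part of free RNA in these ratios was not tested. BAT over BeAT, 0 members were higher and 0 lower of 12 in the sham libraries, against 1.61% and 2.41%, and 1 was higher (Col28a1, 3.23) and 0 lower of 7 in the surgery libraries, against 5.53% and 3.11%.

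Mural-like nuclei, the contractile cells around vessels, numbered 50 in BAT surgery, 305 in BAT sham, 45 in BeAT surgery and 383 in BeAT sham, and BeAT surgery was too small to be compared. Col4a1 had 605 CPM in BAT surgery, 501 in BAT sham, 490 in BeAT surgery and 532 in BeAT sham. Col3a1 had 823 in BAT surgery, against 617 in BAT sham, and 694 in BeAT sham. Under the BAT label 1 member was higher and 1 lower of 16, against 4.34% and 7.58% of all genes. Col4a6 had 194 in BAT surgery, against 63.7 in BAT sham (3.04, 1.82 to 4.93). Col19a1, a collagen of basement membrane zones, had 1 UMI in BAT surgery, or 8.07, against 81.6 in BAT sham (0.0988).

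The sham libraries differed in the same chains of mural-like nuclei. BAT over BeAT, 3 members were higher and 0 lower of 18, against 3.59% and 2.96%. Col4a6 had 63.7 CPM in BAT sham, against 4.88 in BeAT sham (13.04, 5.67 to 36.9), and Col19a1 had 81.6, against 9.77 (8.36, 4.53 to 16.8). Col4a5 had 70.7 in BAT sham, against 26.0 in BeAT sham (2.71), which was 1.92 with the span trend taken off. In the 45 mural-like nuclei of BeAT surgery Col19a1 stood at 126 and Col4a6 at 77.0, on 18 and 11 UMIs. Myh11, a smooth muscle marker, had 1210 CPM in mural-like nuclei of BAT surgery, 1135 in BAT sham, 1792 in BeAT surgery and 509 in BeAT sham. Rgs5, a pericyte marker, had 645, 1200, 651 and 966 in that order. The part of this mix in the mural-like ratios was not tested.

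In macrophage-like nuclei few members stood above the lymphoid level. Under the BAT label 1 member was higher and 12 lower of 14, against 4.76% and 11.8% of all genes, and under the BeAT label 1 was higher and 6 lower of 7, against 8.01% and 15.7%. Of the members with 20 UMIs, 0 of 15 stood above the lymphoid nuclei in BAT sham and 0 of 13 in BeAT sham. Col14a1 was above it in BAT surgery, with 95 UMIs or 30.3 CPM, and Col27a1 and Col6a5 were above it in BeAT surgery, with 81 and 42 UMIs, most of them in 1 cluster of 61 nuclei. BAT over BeAT, 1 member was higher and 0 lower of 13 in the sham libraries, against 2.45% and 2.46%, and 1 higher and 1 lower of 3 in the surgery libraries, against 5.91% and 5.3%.

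Some members belonged to classes seen in few libraries. Col6a4, a further alternative type VI chain, had 8493 UMIs in BAT surgery, against 2 in BAT sham, and 112 in BeAT surgery, against 3 in BeAT sham, and 97.7% of those in BAT surgery were in epithelial-like nuclei. Epithelial-like nuclei of BAT surgery also held Col4a3 at 43.0, Col4a4 at 44.7 and Col4a5 at 42.8 CPM, and 1 of their clusters reached 646 for Col4a3 with 104 for Col7a1, the anchoring fibril collagen, and 74.8 for Col17a1, a hemidesmosome collagen. Mesothelial-like nuclei, 111 in BAT surgery and 0 elsewhere, held 1970.5 CPM of Col3a1, 665 of Col1a2, 600 of Col24a1, 439 of Col4a5, 397 of Col4a6, 322 of Col6a5 and 198 of Col6a6. They held 65.2% of the Col24a1 UMIs of that library. Col24a1, Col4a5, Col4a6, Col6a5 and Col6a6, together with Col4a4, were also the members higher in progenitor-like nuclei of BAT surgery than of BeAT surgery, and the part of mesothelial RNA in those nuclei was not tested.

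The 51 genes that modify, cut, cross-link or sense collagen were followed in the same nuclei. In progenitor-like nuclei 3 were higher and 6 lower of 44 under the BAT label, and 4 were higher and 7 lower of 41 under the BeAT label, against 6.12% and 12.1% (BAT) and 5.59% and 17.9% (BeAT) of all genes. Their median log2 ratios were -0.08 and -0.10. Lox, which cross-links collagen, was lower under both labels, with 23.3 CPM in BAT surgery, against 124 in BAT sham (0.187), and 32.2 in BeAT surgery, against 128 in BeAT sham (0.252). Pcolce, which speeds removal of the C-terminal propeptide of fibrillar collagens, had 77.1 in BAT surgery, against 242 in BAT sham (0.319), and 93.5 in BeAT surgery, against 329 in BeAT sham (0.284). Fkbp10, a folding enzyme of type I collagen, was lower under both labels (0.496 and 0.208).

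The chaperone Serpinh1, which holds the collagen helix in the endoplasmic reticulum, had 85.9 CPM in BeAT surgery, against 352 in BeAT sham (0.244, or 0.480 with the span trend off), and 111 in BAT surgery, against 220 in BAT sham. Ppib (0.208, or 0.535 with the span trend off), Crtap (0.307) and P3h4 (0.297) of the prolyl 3-hydroxylase machinery were lower under the BeAT label. Tll1, a propeptide protease, had 216 in BeAT surgery, against 10.5 in BeAT sham (20.6, 14.04 to 31.1). Itga2 (6.03) and Itga11 (2.87), collagen-binding integrins, and Smad7 (2.20), an inhibitor of TGF-beta signalling, were also higher there. Under the BAT label Plod2 (2.19), a lysyl hydroxylase, Colgalt2 (3.83), a galactosyltransferase, and Adamts3 (3.93), a propeptide protease, were higher. Plod3 (0.417), another lysyl hydroxylase, and Pcolce2 (0.226) were lower.

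In adipocyte-like nuclei 4 of these genes were higher and 8 lower of 37 under the BAT label, against 5.34% and 11.9% of all genes, and 2 were higher and 7 lower of 35 under the BeAT label, against 4.33% and 15.1%. Loxl1, a relative of Lox, had 62.4 CPM in BAT surgery, against 9.70 in BAT sham (6.43), and 35.7 in BeAT surgery, against 9.55 in BeAT sham (3.74). Adamts2, which removes the N-terminal propeptide, had 152 in BAT surgery, against 68.0 in BAT sham (2.23), and 132 in BeAT surgery, against 54.0 in BeAT sham (2.44). Both were higher in each surgery library. Serpinh1 was lower under both labels (0.433 and 0.455), as was Itga1, a collagen receptor (0.219 and 0.462).

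Over whole libraries collagen made up 991 CPM in BAT surgery, against 3100 in BAT sham, and 807 in BeAT surgery, against 2674 in BeAT sham. Progenitor-like nuclei were 440 of 9131 nuclei in BAT surgery, against 1782 of 9970 in BAT sham, and 165 of 5302 in BeAT surgery, against 997 of 9760 in BeAT sham. With lymphoid, plasma cell-like, muscle-like and epithelial-like nuclei set aside, the ratio of collagen levels, surgery over sham, was 0.810 under the BAT label and 0.556 under the BeAT label. At that scale 12 members were higher and 16 lower of 41 under the BAT label, against 22.4% and 18.1% of all genes, and 8 were higher and 16 lower of 36 under the BeAT label, against 20.8% and 22.1%. BAT over BeAT gave 5 higher and 0 lower of 34 in the sham libraries, against 5.59% and 2.12%, and 18 higher and 6 lower of 40 in the surgery libraries, against 26.4% and 17%. Epithelial-like nuclei held 38706147 of the 51892484 UMIs of BAT surgery, and lymphoid nuclei 9377415 of the 19008608 of BeAT surgery. Fewer progenitor-like nuclei, less collagen RNA in each and more RNA of other classes cannot be told apart at the scale of whole libraries.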

How the data were processed

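The authors deposited UMI counts per gene and barcode for 4 libraries, made with a SeekGene protocol per the labels. The molecule is given as nuclear RNA, while the protocol in the labels describes digested tissue and viable cells. The submitters' processing notes name mm10 and Seurat 4.4.0 and 4, and the aligner is not given in the sources used here. Deposited barcodes numbered 9946 (BAT surgery), 10445 (BAT sham), 5952 (BeAT surgery) and 10417 (BeAT sham), with 60409801, 47525684, 23118695 and 35675477 UMIs.

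Nuclei had at least 500 UMIs, 300 genes and under 10% mitochondrial UMIs, which removed 4, 29, 3 and 34 in the same order. Scrublet-type doublet calls (expected rate 6%) removed 811, 446 and 647 at the automatic threshold in the first 3 libraries. That threshold called 0% in BeAT sham, where the 623 nuclei with the highest scores were removed instead. Clustering used scanpy 1.11.5 and leidenalg 0.10.2, with 10000 counts per nucleus, 2000 variable genes without collagen genes, 30 components, 15 neighbours and resolution 2.0. A class needed 3 markers at least 2-fold over other clusters in 5% of its nuclei, with limits set once the clusters were known. A cluster could be left unnamed where markers of an unrelated class scored at least 60% as high.

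UMIs were summed per class and library, scaled to CPM, and compared as ratios with exact conditional binomial 95% intervals (scipy 1.17.1), in classes with at least 50 nuclei in each library. With 1 library a group no test was possible, and 4 comparisons were made. The ratio script was tested on simulated data. Coordinates and spans came from GENCODE M21, which held 32235 gene identifiers and all 44 collagen genes. Full values were given for members counted as higher or lower in progenitor-, adipocyte-, endothelial- or mural-like nuclei (at most the 15 largest ratios a comparison), always for the common types I, III, IV, V, VI, XV and XVIII, and for members of a fixed list of 51 collagen pathway genes when counted. The members, gene lists and markers were chosen with earlier results of these data known. The values of 1 pathway gene are not reported here. Alternatives are given in the closing section.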

Additional observations from a re-analysis of the deposited data

How the results depend on the processing

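No paired analysis was possible because each group was 1 library and no library could be left out. Counts in this section are given without the share of all genes in the same setting. They show how the collagen counts moved and cannot be called particular to collagen genes. With median-of-ratios scaling, and with the genes that lead epithelial- and lymphoid-like classes left out of the totals, no count moved by over 1.5 times and no ratio changed direction. At resolution 1.0 the C7 cluster was not named progenitor-like, and 64 such nuclei remained in BAT surgery. There, in BAT surgery over BAT sham, 4 members were higher in progenitor-like nuclei, and the ratios were 0.702 for Col23a1, 0.350 for Col4a3, 0.775 for Col4a4 and, with 3 UMIs in place of 0, at most 0.776 for Col8a1, all reversed; Col24a1 had 0 UMIs in BAT surgery and 2 in BAT sham. BAT surgery over BeAT surgery then gave 2 higher and 4 lower in progenitor-like and 2 higher in endothelial-like nuclei, BeAT surgery over BeAT sham gave 6 lower in endothelial-like nuclei, and 19 members were highest in progenitor-like nuclei of BAT surgery. No mural-like class was named at that resolution or with doublets kept.

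Inside the C7 cluster, BAT surgery over BAT sham, 3 members were lower, and ratios on the other side of 1 were 0.827 for Col23a1, 1.02 for Col4a2, 0.779 for Col4a3, 0.884 for Col4a4, 1.03 for Col5a3, 1.30 for Col6a2 and 0.396 for Col8a1. BeAT surgery over BeAT sham gave 2 higher and 4 lower, with 1.28 for Col15a1, 1.02 for Col4a1, 2.06 for Col4a2, 1.05 for Col5a3 and 0.471 for Col6a6. BAT surgery over BeAT surgery gave 2 lower there, and BAT sham over BeAT sham 0 lower. In the Pi16 cluster BeAT surgery over BeAT sham gave 0 higher and 7 lower, and BAT sham over BeAT sham 1 higher and 0 lower, with Col25a1 at 0.777. In the Smoc2 cluster BAT sham over BeAT sham gave 0 higher, with Col25a1 at 0.617. In the adipocyte-like clusters led by Gm16168 and by Mageb18, BAT sham over BeAT sham gave 0 higher in each, and BeAT surgery over BeAT sham gave 0 and 1 higher, with 2 lower in the first and Col27a1 at 2.59 in the second.

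Thinned to 1000 UMIs a nucleus, progenitor-like nuclei gave 4 higher in BAT surgery over BAT sham, 2 higher in BeAT surgery over BeAT sham and 1 higher in BAT sham over BeAT sham, and Col24a1 gave no direction there in BAT surgery over BeAT surgery (6 and 0 UMIs). Adipocyte-like nuclei gave 2 lower under each label, 1 higher in BAT surgery over BeAT surgery and 0 higher in BAT sham over BeAT sham, with Col20a1 (1.01, BAT label) and Col27a1 (1.02, BeAT label) reversed. Endothelial-like nuclei gave 1 higher and 2 lower in BAT surgery over BAT sham and 0 higher in BAT surgery over BeAT surgery. Thinning leaves fewer members with 50 UMIs.

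With no minimum of UMIs, BAT surgery over BAT sham gave 17 higher in progenitor-like and 6 higher in endothelial-like nuclei. BeAT surgery over BeAT sham gave 5 higher in adipocyte-like and 7 lower in endothelial-like nuclei. BAT surgery over BeAT surgery gave 10 higher and 1 lower in progenitor-like and 5 higher and 2 lower in adipocyte-like nuclei. BAT sham over BeAT sham gave 2 lower in progenitor-like, 2 higher in adipocyte-like and 1 higher in endothelial-like nuclei. With the span trend taken off, adipocyte-like nuclei gave 1 higher under the BAT label, 0 under the BeAT label, and 0 higher and 1 lower between the sham libraries, and endothelial-like nuclei gave 5 lower under the BeAT label.

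With collagen genes in the clustering, adipocyte-like nuclei gave 1 higher under the BeAT label and 0 higher between the sham libraries, and endothelial-like nuclei 6 lower under the BeAT label. With doublets kept, 3 were higher in endothelial-like nuclei of BAT surgery over BeAT surgery and 0 lower in progenitor-like nuclei of BAT sham over BeAT sham. Against the sham library of the other label, endothelial-like nuclei gave 1 higher and 3 lower for BAT surgery and 6 lower for BeAT surgery, and adipocyte-like nuclei 0 higher for BeAT surgery. Over whole libraries, all deposited barcodes gave collagen ratios of 0.315 under the BAT label, 0.296 under the BeAT label and 1.14 between the sham libraries. With lymphoid, plasma cell-like, muscle-like and epithelial-like nuclei set aside they were 0.810, 0.556 and 1.18, and 1.71 for BAT surgery over BeAT surgery. The causes were not tested. Depth limits the mural-like comparison in BAT surgery (123955 UMIs) and all scarce members, and comparisons inside the Pi16, Smoc2 and both adipocyte-like clusters were not run where a library held under 50 nuclei.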

Other observations

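Other classes held their own collagens. Schwann-like nuclei, 89 in BAT sham and 64 in BeAT sham, carried Col28a1, a collagen known from nerve, at 81.6 CPM in the BAT sham nuclei and 73.4 CPM in those of BeAT sham. They also carried Col24a1 at 169 in BAT sham and 73.4 in BeAT sham, Col23a1 at 157 and 117, and Col11a1 at 34.5 and 95.4 in that order. Lymphatic endothelial-like nuclei held Col23a1 at 475 in BAT surgery, against 735 in BAT sham, and at 82.5 in BeAT surgery, against 262 in BeAT sham, from 14 to 81 nuclei a library. Col22a1, a collagen of muscle-tendon junctions, had 34 UMIs in BAT sham, of which 76.5% were in skeletal muscle-like nuclei.

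An epithelial-like cluster of 56 nuclei in BAT sham held Col4a5 at 803 and Col4a6 at 819 CPM, with Col8a1 at 161. In BAT surgery 47.0% of the Col1a1 UMIs lay in unnamed clusters. The largest of these, 764 nuclei in BAT surgery alone, held 316 CPM of Col1a1, 417 of Col3a1 and 221 of Col4a1. These values are not used in any comparison.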
